A study of Mus musculus with 2 samples.

Results

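Dividing leukocytes are here cells with RNA of the leukocyte gene Ptprc that also carry messenger RNA of Mki67 and Top2a, 2 genes that are expressed while a cell copies its DNA and divides. They were taken from 2 single-cell RNA libraries of injured mouse kidney. A barcode was kept with at least 500 UMIs (unique molecular identifiers, each standing for 1 captured RNA molecule), at least 200 genes and at most 50% of UMIs from mitochondrial genes. Kept cells with at least 1 UMI of Ptprc (the leukocyte surface protein CD45) were counted as leukocytes, and those with at least 3 UMIs of Mki67 and Top2a together were counted as dividing. The members were thus chosen by measured values, the UMIs of these genes, and those values are given below as a description only. The rule found 234 dividing leukocytes among 19478 kept cells, 69 of 9452 in the control library and 165 of 10026 in the haplodeficient library. At least 10 UMIs of C1qa, C1qb and C1qc (the chains of complement C1q, made by macrophages) marked a macrophage, and at least 1 UMI of Cd3d, Cd3e and Cd3g (subunits of the T-cell receptor complex) marked a T cell. Cells with both markers were counted apart.

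Both libraries came from kidneys collected at day 14 after ischemia-reperfusion injury, made by clamping 1 renal artery, and both groups received 4 tamoxifen injections. The control mice were Cre-, and the labels used here do not say whether they carried a floxed allele. The haplodeficient mice were Cdh5-CreERT2; Phd3f/+, in which a tamoxifen-activated Cre recombinase is driven by the endothelial Cdh5 promoter and 1 allele of Phd3 (gene symbol Egln3, an oxygen-sensing prolyl hydroxylase) is floxed. The leukocytes themselves are therefore not the cells in which that Cre is meant to act. Each group is 1 library, the number of mice pooled in it is not given in the sources used here, and both libraries carry batch label 1. Genotype, library and mouse cannot be told apart, so no p-value is given, and every interval covers counting error only. In dividing macrophages Egln3 had 1 UMI in each library, and in dividing T cells it had 3 UMIs in control and 6 in haplodeficient. These counts do not check an endothelial deletion.

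A dividing cell passes through S phase, in which its DNA is copied, and then through mitosis, in which the copied chromosomes are separated. Genes for replication and for histones are switched on around S phase, those for replication by E2F transcription factors. Genes for the spindle and kinetochore are controlled by the DREAM, B-MYB and FOXM1 complexes and are switched on later. In the injured kidney, resident macrophages and T cells are known to divide in place, beside the cells recruited from blood, whereas neutrophils arrive as cells that no longer divide.

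The libraries held 134190236 UMIs (control) and 114668145 UMIs (haplodeficient). Kept cells had a median of 9160 and 5862 UMIs and a median mitochondrial share of 10.2% and 2.72%. Leukocytes made up 1651 kept cells in control and 4029 in haplodeficient. In all, 28 barcode sequences occurred among kept cells of both libraries, and 0 dividing leukocytes were among them. Tubule RNA outside cells was plentiful in control: the proximal tubule list took 23952 CPM (counts per 1000000 UMIs) in droplets of 1 to 100 UMIs there and 2629 CPM in haplodeficient. C1q RNA in these droplets was at 409 CPM in control and 2017 CPM in haplodeficient. Ptprc was at 25.3 CPM and 99.8 CPM, and Cd3d, Cd3e and Cd3g together at 9.11 CPM and 119 CPM. Mki67 and Top2a together were at 11.6 CPM and 23.5 CPM there.

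The dividing cells were larger libraries than their neighbours, with medians of 14707 UMIs (control) and 13055 UMIs (haplodeficient) against 6706 and 4515 in other leukocytes. The rule itself asks for UMIs, so depth and membership are linked. Mki67 and Top2a together had a median of 12 UMIs in control members (highest 34) and of 9 in haplodeficient members (highest 90). Just inside the threshold, 7 control and 26 haplodeficient members had exactly 3 UMIs. Just outside, 24 and 70 leukocytes had exactly 2. Among proximal tubule cells, which should not meet the rule, 0.0943% (control) and 0.184% (haplodeficient) did, at median depths of 14505 and 12921 UMIs. Single markers were met there more often, and more so in haplodeficient. Ptprc was met in 3.05% and 9.74%, C1q in 1.01% and 4.04%, and Cd3 in 0.503% and 4.23%. How far such stray UMIs change the classes and shares below was not tested. A further 14 control and 23 haplodeficient members also carried at least 10 UMIs of the epithelial and endothelial genes Epcam, Krt8 and Pecam1. These cells, called cells with kidney genes below, had Ptprc at a single UMI in 9 and 11 cases. A simulation-based caller of doublets (droplets with more than 1 cell) placed 13 of 69 and 20 of 165 members among its top-scoring cells.

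Macrophages, T cells and dendritic cells made up most of the dividing leukocytes, in different proportions in each library. Macrophages were 22 of 69 dividing cells in control (31.9%) and 74 of 165 in haplodeficient (44.8%). T cells were 16 (23.2%) and 64 (38.8%), and 0 and 4 cells carried both markers. The remaining 31 control cells (44.9%) and 23 haplodeficient cells (13.9%) had neither marker. Of these, 10 and 5 carried at least 2 UMIs of Xcr1 and Clec9a, receptors that define type 1 conventional dendritic cells (cDC1). Another 8 and 6 carried at least 2 UMIs of Cd209a, Mgl2 and Itgax, markers of type 2 conventional dendritic cells (cDC2). Kidney genes marked 9 and 10, and 4 and 2 had none of these markers. Among all leukocytes the macrophage share was 44.5% in control and 30.9% in haplodeficient, and the T-cell share was 10.8% and 28.9%.

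The share of leukocytes that were dividing was close in both libraries, at 4.18% in control (69 of 1651, 95% Clopper-Pearson interval 3.27 to 5.26) and 4.10% in haplodeficient (165 of 4029, 3.50 to 4.75). The difference, haplodeficient minus control, was -0.08 percentage points (95% Newcombe interval -1.30 to 1.00). Within lineages the shares differed in opposite directions. With the lineage makeup of the other library, the control shares would give 5.15% and the haplodeficient shares 3.93%.

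Among macrophages, 3.00% were dividing in control (22 of 734, 1.89 to 4.50) and 5.95% in haplodeficient (74 of 1244, 4.70 to 7.41). The difference of 2.95 points had an interval of 1.04 to 4.72. At exactly 3 UMIs stood 3 of the 22 control and 15 of the 74 haplodeficient cells, and with a minimum of 5 UMIs the difference was 1.43 points (-0.281 to 2.98), an interval that includes 0. Over all macrophages the summed level of Mki67 and Top2a was 47.9 CPM in control (43.0 to 53.2) and 84.2 CPM in haplodeficient (79.4 to 89.2). The haplodeficient macrophages were also deeper, with medians of 7309 against 6087 UMIs. When each cell was thinned to 2000 UMIs, 6.01% of control and 5.85% of haplodeficient macrophages kept at least 1 UMI. In thinned neutrophils that share was 7.14% in control (1 of 14, 0.181 to 33.9) and 3.72% in haplodeficient (7 of 188, 1.51 to 7.52). The control value is 1 cell, since 40 of 54 control neutrophils were too shallow to thin, so it is a poor measure of background. No order was read from the macrophage shares at 1 UMI. At 3 UMIs after thinning the shares were 0.978% and 1.40%. Without the cells with kidney genes the unthinned shares were 2.91% and 5.74%.

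Among the macrophage subsets by Gpnmb and Mrc1, the widest gap between the libraries was in those with Gpnmb, a membrane glycoprotein of lipid-laden and lysosome-rich macrophages. Of macrophages with at least 3 Gpnmb UMIs, 1 of 97 was dividing in control (1.03%, 0.026 to 5.61) and 24 of 265 in haplodeficient (9.06%, 5.89 to 13.2), a difference of 8.03 points (2.61 to 12.2). Macrophages with at least 3 UMIs of Mrc1 (the mannose receptor CD206) and fewer of Gpnmb had nearer shares, 8 of 303 (2.64%) and 13 of 388 (3.35%). Those with neither gave 13 of 334 (3.89%) and 37 of 591 (6.26%). Cells with Gpnmb were deep in both libraries, with median UMIs of 11545 and 14664 against 5928 and 6215 in those with Mrc1. Each cell was therefore also thinned as above. With Gpnmb, 3 of 97 control (3.09%, 0.642 to 8.77) and 18 of 265 haplodeficient cells (6.79%, 4.08 to 10.5) kept at least 1 UMI. These intervals overlap. That share was 6.29% and 5.51% with Mrc1, and 6.62% and 5.64% with neither. At 3 UMIs the shares were 0% and 1.51% with Gpnmb, 1.32% and 0.787% with Mrc1, and 0.946% and 1.76% with neither. As for all macrophages, no order was read from the shares at 1 UMI. Whether the gap differs between these subsets was not tested. The cutoffs for Gpnmb and Mrc1, and that for Ccr2 below, were set after the values were seen. By Ccr2, the chemokine receptor of recruited monocytes, macrophages with a UMI were dividing in 11 of 349 (3.15%) and 23 of 495 cases (4.65%). Those without one were dividing in 11 of 385 (2.86%) and 51 of 749 cases (6.81%), a difference of 3.95 points (1.25 to 6.34).

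T cells had the reverse order, 8.94% dividing in control (16 of 179, 5.20 to 14.1) and 5.50% in haplodeficient (64 of 1164, 4.26 to 6.97). The difference of -3.44 points had an interval of -8.66 to 0.226, which includes 0. Mki67 and Top2a together were at 308 CPM over control T cells (273 to 346) and at 139 CPM over haplodeficient T cells (130 to 149). Median depths were close, 2900 and 2822 UMIs. Without the cells with kidney genes the shares were 7.56% and 5.39%. CD8 T cells (cytotoxic, with a Cd8a or Cd8b1 UMI and no Cd4 UMI) gave 6 of 70 (8.57%) and 34 of 477 (7.13%). CD4 T cells (helper and regulatory, the reverse) gave 6 of 36 (16.7%) and 12 of 202 (5.94%), with a difference of -10.7 points (-26.2 to -0.998). Gamma delta T cells, recognised by Trdc or Tcrg-C1, gave 4 of 15 (26.7%) and 4 of 123 (3.25%). Cells with Foxp3, the regulatory T-cell factor, gave 1 of 7 and 3 of 43. The control subsets hold 6 dividing cells or fewer, so their intervals are wide.

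Dendritic cells had a lower dividing share in haplodeficient. cDC1 cells were dividing in 10 of 66 cases in control (15.2%) and 5 of 57 in haplodeficient (8.77%), and cDC2 cells in 8 of 85 (9.41%) and 6 of 160 (3.75%). Together they gave 11.9% and 5.07%, a difference of -6.85 points (-13.4 to -1.17). Neutrophils, cells with at least 10 UMIs of S100a8 and S100a9, gave 0 of 54 in control and 1 of 406 in haplodeficient (0.246%). A count of 0 allows a share of up to 5.56% by the floor of 3 cells and up to 6.60% by the exact interval. Their median depths of 1619 and 1958 UMIs also make 3 UMIs harder to reach. Natural killer cells gave 0 of 16 and 3 of 40, and B cells 0 of 4 and 0 of 22. The marker cutoffs for these subsets, and that for the cells with kidney genes, were set after the values were seen.

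**Figure D1:**
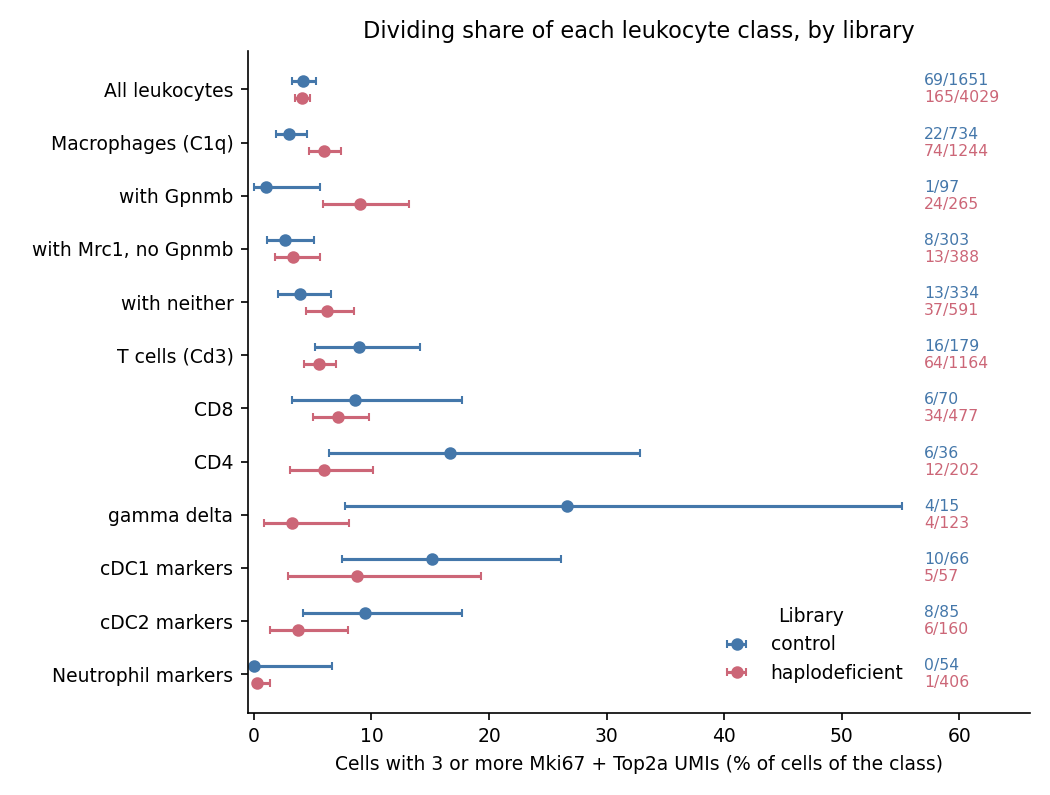
Share of cells with at least 3 Mki67 and Top2a UMIs (x axis, percent) in each leukocyte class (y axis) of the control (blue) and haplodeficient (red) library, with exact 95% binomial intervals and the counts at the right. Macrophages with Gpnmb stand at 1.03% in control and 9.06% in haplodeficient, and the T-cell and dendritic classes stand lower in haplodeficient, with intervals that mostly overlap.

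Dividing cells were then compared with the other cells of their lineage, gene by gene, on UMIs summed over cells. Values are CPM, and a log2 ratio is of CPM plus 5, so it understates changes of low genes. A gene met the size rule when this ratio was at least 1 in size and the exact Poisson 95% intervals of the 2 sums did not overlap. Only genes that averaged 50 CPM or more and had 30 UMIs or more over both sides were tested this way, and these are called eligible. A gene near 0 in other cells passes that filter only through the dividing cells, so the cycle lists are counted over all listed genes. For scale, 6669 of 19678 detected genes in control and 9093 of 20980 in haplodeficient were above other macrophages in dividing macrophages. In T cells 7698 of 15808 and 6999 of 19938 detected genes were above.

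In macrophages of the control library, 162 genes were higher in dividing cells and 164 lower (4.92% and 4.98%, together 9.89%, of 3295 eligible genes). In haplodeficient macrophages 95 were higher and 45 lower (3.02% and 1.43%, together 4.46%, of 3141). The 73 genes higher in both libraries were 45.1% of the control genes and 76.8% of the haplodeficient genes. The 18 genes lower in both were 11.0% and 40.0%. In control T cells, 330 genes were higher and 185 lower (8.96% and 5.02%, together 14.0%, of 3682). In haplodeficient T cells 165 were higher and 116 lower (4.77% and 3.35%, together 8.12%, of 3461). The 90 genes higher in both were 27.3% and 54.5%, while 15 of the genes higher in control were lower in haplodeficient. Median ratios over all eligible genes were 0.02, 0.07, 0.10 and -0.01 in the same order.

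Replication genes were higher in dividing macrophages throughout. All 19 genes of replication licensing and all 28 of DNA synthesis and nucleotide supply were above other macrophages in both libraries, with medians over the listed genes of 1.82 and 1.83 in control and 1.77 and 2.07 in haplodeficient. In T cells 44 of the 46 detected S-phase genes were above in control and 47 of 47 in haplodeficient. Pcna, the sliding clamp of DNA polymerase, was at 206 CPM in dividing and 61.8 CPM in other control macrophages, and at 233 and 70.6 CPM in haplodeficient, a log2 ratio of 1.66 in both. Tyms, thymidylate synthase, had ratios of 3.03 and 3.05 in macrophages and 3.11 and 2.95 in T cells. Rrm2, the small subunit of ribonucleotide reductase, had 31 UMIs in dividing and 3 in other control T cells, 30.8-fold by CPM (9.62 to 158). Pclaf, a factor that binds PCNA, was at 237 against 2.76 CPM in control macrophages (4.96) and at 262 against 5.38 CPM in haplodeficient (4.68).

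Mitotic genes were higher still. All 61 genes of the kinetochore, spindle and anaphase-promoting complex lists were above other cells in both lineages and both libraries. Their medians over the listed genes were 2.82 and 2.53 in macrophages and 3.36 and 2.94 in T cells, control first. Birc5, survivin of the chromosomal passenger complex, was at 298 against 4.64 CPM in control macrophages (4.97) and at 245 against 6.78 CPM in haplodeficient (4.41). Prc1, which bundles microtubules of the central spindle, was at 135 against 2.18 CPM (4.28) and 134 against 2.23 CPM (4.26). Cenpf, a kinetochore protein, was at 168 against 2.61 CPM (4.51) and 108 against 1.32 CPM (4.15). Nusap1 and Tpx2, which build the spindle, had ratios of 4.12 and 4.43 in control and 3.84 and 3.76 in haplodeficient macrophages. Ube2c, the ubiquitin-conjugating enzyme of the anaphase-promoting complex, was at 303 against 3.48 CPM (5.18) and 109 against 3.31 CPM (3.78). In T cells the ratios were 4.79 and 4.76 for Cenpf and 4.35 and 4.37 for Nusap1. Ube2c had 87 UMIs in dividing and 3 in other control T cells (86.5-fold by CPM, 28.7 to 428), and a ratio of 5.19 in haplodeficient. Hmmr, a spindle-associated protein, had 33 UMIs and 1 UMI in control (98.5-fold, 16.5 to 4006), and a ratio of 4.42 in haplodeficient. Ccna2, cyclin A2, had 29 UMIs in dividing and 1 in other control T cells, and 83 and 3 in haplodeficient (207-fold, 68.4 to 1024).

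Histone genes gave the largest ratios. All 27 genes of the histone and chromatin protein list were above other cells in both lineages and libraries. Hist1h2ap (ENSMUSG00000094777, GRCm38 chr13:21833026-21833507, minus strand), a replication-dependent histone H2A gene of a large cluster, was at 1130 against 6.82 CPM in control macrophages (6.58) and 745 against 6.62 CPM in haplodeficient (6.01). In T cells it was at 1925 against 5.93 CPM (7.46) and 3003 against 12.0 CPM (7.47). The linker histone Hist1h1b had ratios of 5.68 and 6.33 in macrophages and of 6.46 in haplodeficient T cells, and 171 UMIs in dividing against 1 in other control T cells. Copies in this cluster are near-identical in sequence, so their split into single genes is uncertain. Their messages mostly lack a poly(A) tail, which a 3' kit primes on, so these levels are those of the captured part. H2afz and Hmgb2, chromatin proteins with ordinary messages, had ratios of 2.03 and 2.86 in control and 1.49 and 2.47 in haplodeficient macrophages. Stmn1, which destabilises microtubules, had ratios of 3.40 and 3.54 in macrophages and 3.36 and 4.35 in T cells.

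Promoter sequences are shown for 3 mitotic genes and 1 licensing gene from these lists, as examples with matches to the motifs below. RefSeq's promoter windows (GRCm38.p6, 300 bases, from 250 before to 50 after each start, 27025 gene symbols) were searched on both strands. The CHR motif TTTGAA, bound by DREAM and B-MYB complexes, stood in the window of 37 of 53 mitotic genes with a window (69.8%), 7 of 37 S-phase genes (18.9%) and 20.2% of all genes. The CCAAT motif, bound by NF-Y, stood in 38 of 53 (71.7%), 23 of 37 (62.2%) and 41.1%. E2F motifs (TTTCGCGC, TTTGGCGC, TTTCCCGC or TTTGCCGC) stood in 2 of 53 (3.77%), 16 of 37 (43.2%) and 2.61%. The windows of Birc5 and Nusap1, also mitotic genes named above, hold no match to any of the 3 motifs. A match describes the letters and is not a measured site. The 100 bases from 120 to 21 before the start follow, 5′ to 3′ on the gene's strand, with matches to the 3 motifs in capitals.
Ube2c (chr2:164769809-164769908, plus strand): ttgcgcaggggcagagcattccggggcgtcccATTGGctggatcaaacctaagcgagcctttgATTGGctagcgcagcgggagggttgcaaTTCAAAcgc
Prc1 (chr7:80294356-80294455, plus strand): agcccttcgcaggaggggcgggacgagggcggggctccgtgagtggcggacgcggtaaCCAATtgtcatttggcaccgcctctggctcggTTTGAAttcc
Hmmr (chr11:40733458-40733557, minus strand): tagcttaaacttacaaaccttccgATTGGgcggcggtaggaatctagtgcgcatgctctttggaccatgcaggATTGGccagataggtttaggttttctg
Mcm6 (chr1:128359726-128359825, minus strand): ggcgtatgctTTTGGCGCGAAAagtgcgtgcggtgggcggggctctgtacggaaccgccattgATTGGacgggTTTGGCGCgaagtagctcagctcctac
Ube2c and Prc1 each hold a CHR motif close to the start and a CCAAT motif further upstream. Hmmr holds 2 CCAAT motifs in this stretch, and a CHR match elsewhere in its window. Mcm6, a subunit of the replicative helicase, holds E2F matches, 2 of which overlap in the first capital run, and a CCAAT match. Mcm6 met the size rule in haplodeficient macrophages (2.45) and haplodeficient T cells (1.88). In control its ratios were 2.02 in macrophages, where it was below the filter, and 0.66 in T cells.

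The cyclins and their kinases went in both directions. Of 13 genes, 10 and 11 were above other macrophages and 10 and 11 above other T cells, in control and haplodeficient. Cdk1, the mitotic kinase, was at 158 against 3.19 CPM in control macrophages (4.31) and 109 against 3.89 CPM in haplodeficient (3.68). Ccnd1, a D-type cyclin that responds to growth factors, was at 153 against 68.2 CPM (1.11) and 82.1 against 44.8 CPM, where the ratio of 0.81 missed the size rule. Ccnd3, another D-type cyclin, was at 43.3 against 95.9 CPM in control macrophages (-1.06) and 56.0 against 77.3 CPM in haplodeficient (-0.43, which missed the rule). In T cells Ccnd3 had ratios of -1.06 and -0.32, and only the control ratio met the rule. Csf1r, the receptor for the macrophage growth factor CSF1, was at 351 against 432 CPM in control and 335 against 399 CPM in haplodeficient macrophages, and missed the rule in both. Glycolysis genes had medians of 0.80 (2 of 11 eligible genes higher) and 0.38 (0 of 11) in macrophages. The control count was 8 of 11 without the cells with kidney genes (median 1.12) and 7 of 11 with every cell weighted equally (median 1.07), and the haplodeficient count was 0 in both.

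**Figure D2:**
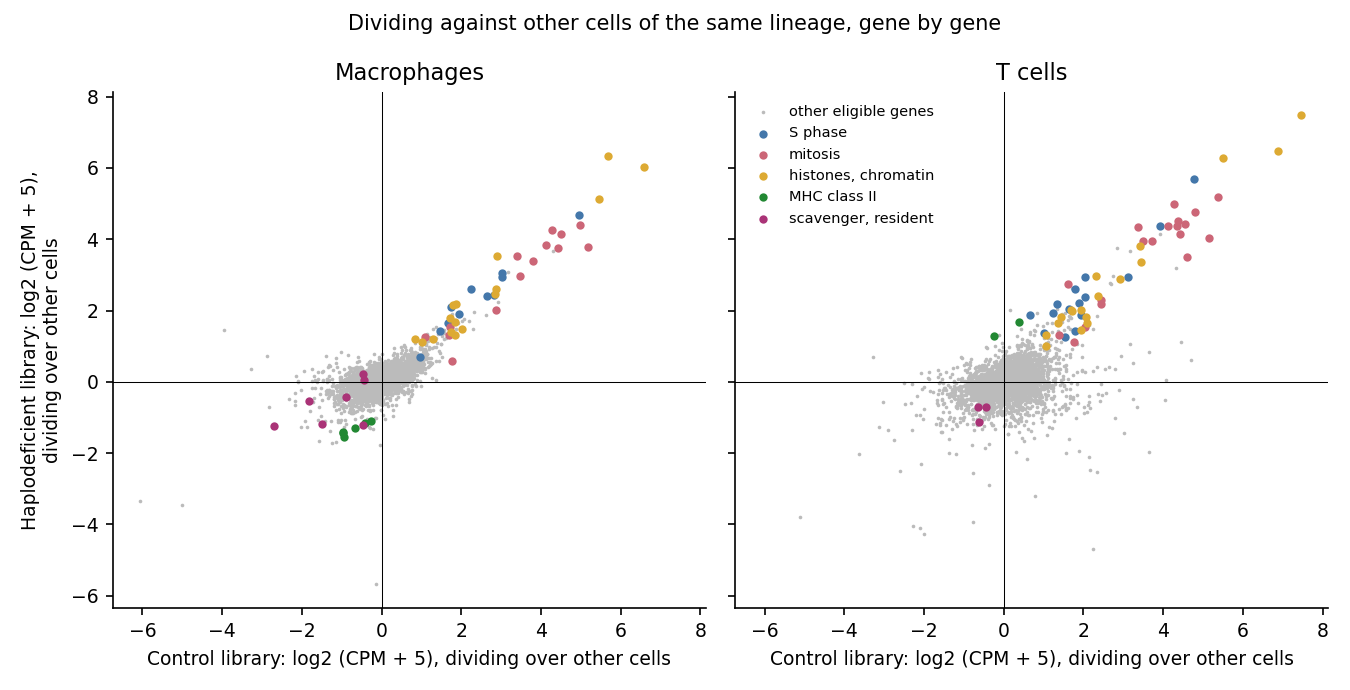
Each point is a gene eligible in both libraries, with its log2 ratio of CPM plus 5 (dividing over other cells of the lineage) in the control library (x axis) and in the haplodeficient library (y axis). S-phase genes, mitosis genes and histones, which are in colour, run to the upper right in macrophages and T cells, with Hist1h2ap at 6.58 and 6.01 in macrophages, while MHC class II genes lie below 0 in macrophages of both libraries.

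Within each dividing cell, the UMIs of the mitosis lists were taken as a percent of those of the S-phase and mitosis lists together. The median was 72.2% in control and 54.9% in haplodeficient macrophages, 73.0% and 56.8% in T cells, and 71.6% and 58.4% in dendritic cells. Mitotic UMIs were the larger part in 17 of 22 and 46 of 74 macrophages and in 12 of 16 and 37 of 64 T cells. In dendritic cells they were the larger part in 13 of 18 and 11 of 11. The quartiles overlapped in each lineage (macrophages 53.7% to 77.7% in control and 37.3% to 69.5% in haplodeficient). Replication-dependent histones at 1000 CPM or more were seen in 13 of 22 and 37 of 74 dividing macrophages. T cells gave 11 of 16 and 40 of 64, and dendritic cells 6 of 18 and 9 of 11. Most of these cells also had the larger part of their cycle UMIs in mitosis genes: 11 of 13 and 31 of 37 macrophages, 8 of 11 and 28 of 40 T cells, and 6 of 6 and 9 of 9 dendritic cells. These histones and the mitosis share therefore did not sort the cells into the same stages. The rule on Mki67 and Top2a, which peak late in the cycle, favours cells past early S phase, and haplodeficient members with as few as 3 cycle UMIs in all carry little information.

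**Figure D3:**
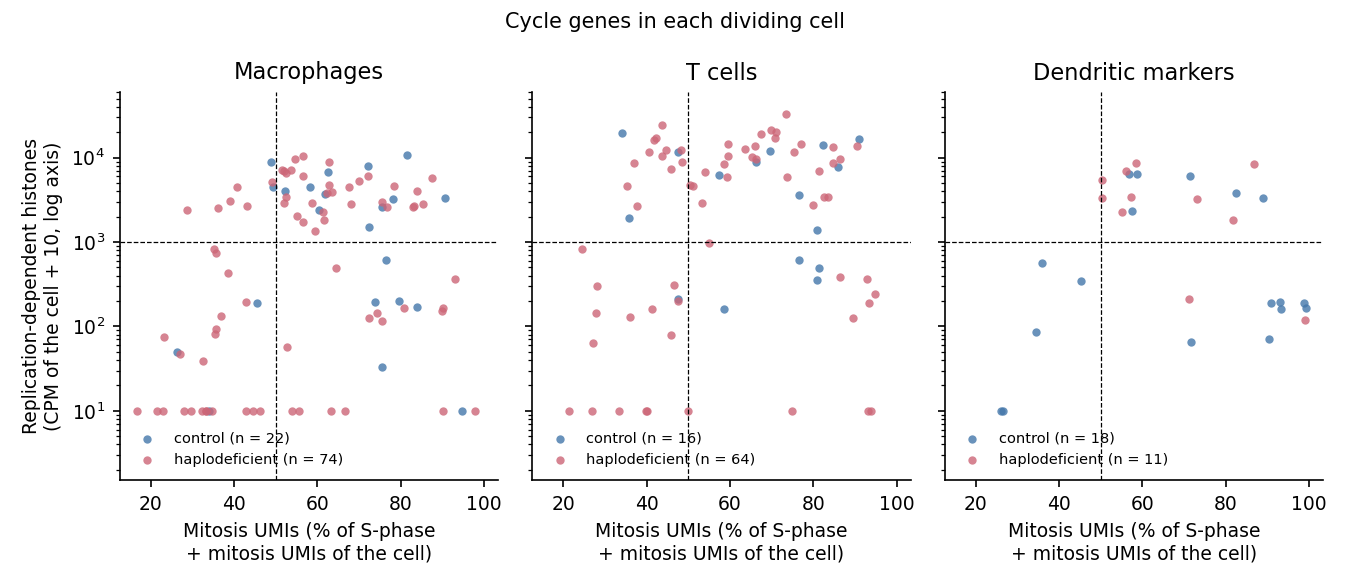
Each point is a dividing cell of the control (blue) or haplodeficient (red) library, with the share of mitosis UMIs among its cycle UMIs (x axis, percent) and its level of replication-dependent histones (y axis, CPM plus 10, log scale). Dashed lines mark 50% and 1000 CPM, and cells at the bottom edge had no histone UMI. Most control cells lie right of 50%, with 17 of 22 macrophages, 12 of 16 T cells and 13 of 18 dendritic cells.

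Dividing macrophages carried less MHC class II RNA, which encodes the molecules that present antigen to CD4 T cells. The 9 listed genes together were at 13563 CPM in dividing and 23659 CPM in other control macrophages, and at 8311 and 21606 CPM in haplodeficient. Of the listed genes 8 of 9 were below other macrophages in each library, beside 13009 of 19678 detected genes in control and 11887 of 20980 in haplodeficient. In haplodeficient 6 of 6 eligible genes met the size rule as lower (median -1.34). In control 1 of 7 did (median -0.93), or 4 of 7 without the cells with kidney genes (median -1.06). H2-Aa, an alpha chain, was at 2157 against 4201 CPM in control (-0.96, which missed the rule) and 1381 against 3641 CPM in haplodeficient (-1.40). H2-Ab1 had ratios of -0.96 and -1.44, and Cd74, the invariant chain, -0.67 and -1.29.

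Per cell, the MHC class II level of dividing macrophages had a median of 18841 CPM in control and 5101 CPM in haplodeficient, against 42751 and 36824 CPM in other macrophages. The dividing cells spanned 107 to 50116 CPM in control and 57.98 to 98085 CPM in haplodeficient, so the groups overlapped widely. Without the cells with kidney genes the medians were 22453 and 7168 CPM. Macrophages with Gpnmb were low in MHC class II in both libraries, whether dividing or not. In haplodeficient they were at 2227 CPM in 24 dividing and 3592 CPM in 241 other cells. In control they were at 107 CPM in the 1 dividing cell and 5861 CPM in 96 other cells. In macrophages without Gpnmb the level was 14236 CPM in dividing and 28573 CPM in other control cells, and 12884 and 30508 CPM in haplodeficient. In dendritic cells the summed levels were close, 34085 CPM in dividing and 34644 CPM in other control cells and 33660 and 34880 CPM in haplodeficient.

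**Figure D4:**
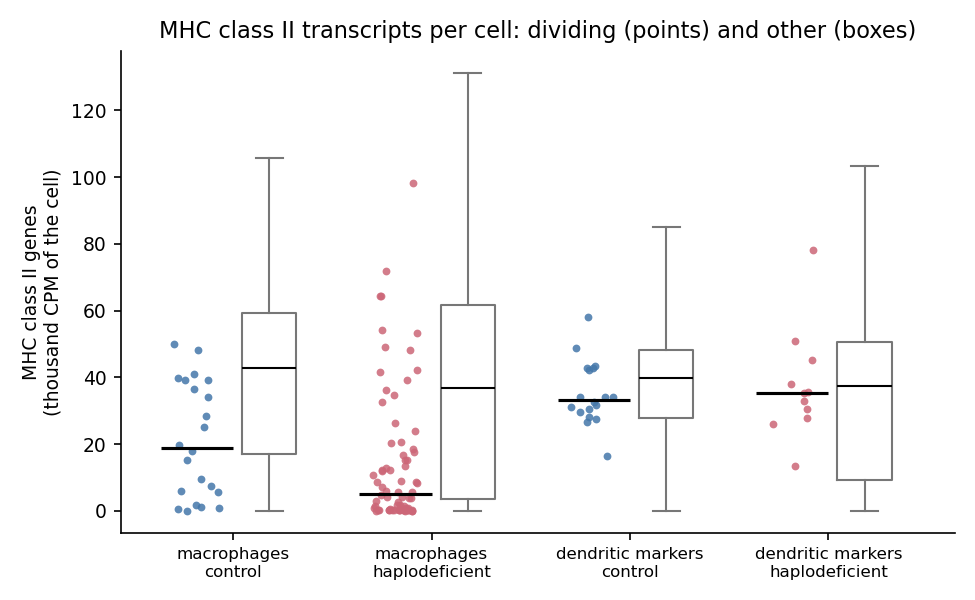
Summed MHC class II RNA per cell (y axis, in units of 1000 CPM) in dividing cells (points, with a bar at the median) and other cells (boxes from the lower to the upper quartile with the median, whiskers to the lowest and highest cell). Dividing macrophages have medians of 18841 and 5101 CPM against 42751 and 36824 CPM in other macrophages, and dividing dendritic cells have 33255 and 35302 CPM against 39793 and 37387 CPM.

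Part of the scavenger and resident macrophage list was lower in dividing macrophages, along with genes outside that list that were named for being lowest in both libraries. Apoe, the lipid carrier apolipoprotein E, was at 8431 against 23848 CPM in control (-1.50) and 13095 against 29999 CPM in haplodeficient (-1.20). Selenop, a selenium transport protein, was at 107 against 720 CPM (-2.70) and 257 against 612 CPM (-1.24). Of the scavenger and resident macrophage list, 3 of 7 eligible genes in control and 3 of 8 in haplodeficient met the rule as lower, with medians of -0.90 and -0.51. Ccl8, a chemokine of resident macrophages, had 0 UMIs in the 22 dividing control cells against 329 CPM in the others, at least 43.1-fold lower against a floor of 3 UMIs for the group. In haplodeficient it was at 33.7 against 385 CPM (-3.33). Mgp, matrix Gla protein, had 1 UMI in dividing and 1633 in other control cells (93.2-fold lower by CPM, 16.7 to 3682), and was at 13.4 against 196 CPM in haplodeficient (-3.46). Cebpd, a transcription factor of inflammatory responses, had ratios of -1.56 and -1.65, and Ifitm2, an interferon-induced membrane protein, -1.30 and -1.37. Pltp, Fcgr4, Vcam1 and Clec4a3 completed the 10 genes named as lower in both libraries, with ratios from -1.15 to -2.01. For Vcam1, 1 cell held 88.2% of the UMIs of dividing control cells. Maf, a transcription factor that holds macrophages in a resting state, was at 45.8 against 175 CPM in control (-1.83) and 85.9 against 126 CPM in haplodeficient (-0.52, which missed the rule). The lipid-associated macrophage list had medians of -0.17 and -0.09, near those of all genes.

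In dividing T cells, Btg1, Cd40lg and Neurl3 were lower in both libraries, with or without the cells with kidney genes. Il7r and Icos were lower in haplodeficient either way, and in control only with those cells. Il7r, the interleukin-7 receptor (GRCm38 chr15:9505788-9530176, minus strand), was at 164 against 492 CPM in control (-1.56) and 132 against 357 CPM in haplodeficient (-1.41). Without the 3 control cells with kidney genes its control ratio was -0.94, which missed the rule. Within CD8 T cells it was at 91.0 against 321 CPM and 87.6 against 166 CPM, and within CD4 T cells at 133 against 486 CPM and 150 against 498 CPM. Cd40lg, the CD40 ligand of helper T cells, had 3 UMIs in dividing control cells, at 13.3 CPM against 117 CPM in the others (8.82-fold lower, 2.91 to 43.7). In haplodeficient it was at 56.0 against 184 CPM (-1.63). Within CD4 T cells it was at 33.1 against 306 CPM and 84.9 against 432 CPM. Btg1, an antiproliferative gene, was at 310 against 814 CPM (-1.38) and 393 against 817 CPM (-1.05). Icos, a co-stimulatory receptor, had ratios of -1.03 and -1.04 (-0.43 in control without the cells with kidney genes, which missed the rule), and Neurl3, a ubiquitin ligase, -1.59 and -1.40. Of the T-cell growth factor list, 6 of 10 eligible genes in control (median -1.04) and 3 of 11 in haplodeficient (median -0.40) met the rule as lower, and none as higher. With the cells with kidney genes left out, 0 of 9 were lower and 1 higher in control (median -0.48), and 3 of 10 lower in haplodeficient (median -0.78). Il2rb, the shared interleukin-2 and interleukin-15 receptor chain, was at 97.4 against 136 CPM and 120 against 119 CPM and missed the rule in both. The cytotoxic list had medians of -0.63 and -0.32, with 3 of 9 and 1 of 12 eligible genes lower. Leaving out those cells gave medians of -0.02 and -0.58, with 0 of 10 and 3 of 12 lower and 1 higher in control. Ccl5, a chemokine of cytotoxic cells, had ratios of -1.56 and -1.06, and of -0.90, which missed the rule, and -1.36 without them.

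Genes also named as lower in dividing T cells included Kap, Spink1, Slc34a1, Car2 and Hsd11b2, which are kidney tubule genes, and Phactr1. The proximal tubule list was lower in 9 of 10 eligible genes in control (median -2.26) and 4 of 4 in haplodeficient (median -4.01). Summed, it was at 1753 CPM in dividing and 8430 CPM in other control T cells and at 32.2 and 979 CPM in haplodeficient. The distal nephron list split in control, with 3 of 5 eligible genes higher and 1 lower (median 1.98), though 7 of 10 detected genes were below. Without the cells with kidney genes 4 of 5 were higher and 1 lower (median 2.65), with Umod at 3015 against 404 CPM. In haplodeficient 3 of 4 eligible distal genes were lower and 0 higher (median -2.49). Dividing T cells were the deeper cells (medians 9249 against 2816 and 8104 against 2772 UMIs), and the part of free tubule RNA in these ratios was not tested. In dividing control T cells 8 of 8 eligible endothelial genes and 3 of 3 eligible neutrophil genes were higher. Without the 3 cells with kidney genes among the 16, 1 endothelial gene was eligible with a ratio of -0.60, and 0 of 2 neutrophil genes were higher. In haplodeficient T cells 4 of 4 eligible MHC class II genes were higher in dividing cells (median 1.72), and 1 cell held 49.4% of the H2-Ab1 UMIs.

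Dividing macrophages of the haplodeficient library were compared with those of the control library, with the same ratio in other macrophages beside it. By the size rule 59 genes were higher and 48 lower (1.82% and 1.48%, together 3.31%, of 3236 eligible genes). In other macrophages 11 were higher and 56 lower (0.349% and 1.77%, together 2.12%, of 3155). The difference between dividing and other cells was not tested. Gpnmb (GRCm38 chr6:49036546-49070929, plus strand) was at 853 CPM in haplodeficient and 135 CPM in control dividing macrophages (2.62), with UMIs in 27 of 74 and 6 of 22 cells. In control 1 cell held 46 of the 53 UMIs. In other macrophages it was at 817 and 443 CPM (0.88). Ccl12 (GRCm38 chr11:82101845-82103400, plus strand), a monocyte-attracting chemokine, was at 357 against 45.8 CPM (2.83), with UMIs in 43 of 74 and 7 of 22 cells. In other macrophages it was at 584 and 352 CPM (0.72). Its neighbour Ccl7 was at 232 against 30.5 CPM (2.74), with 38.2% of the haplodeficient UMIs in 1 cell, and had a ratio of 0.89 in other macrophages. Both chemokines were below other macrophages of their own library, with ratios of -2.81 and -2.32 in control and -0.70 and -0.47 in haplodeficient, of which the control ratios met the rule.

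Ccr2 (GRCm38 chr9:124101950-124113557, plus strand) had the opposite order, at 35.0 CPM in haplodeficient and 165 CPM in control dividing macrophages (-2.09), with UMIs in 23 of 74 and 11 of 22 cells. Other macrophages were at 131 and 171 CPM (-0.37). In macrophages without Gpnmb, dividing cells were at 47.9 CPM in haplodeficient and 174 CPM in control, and other cells at 189 and 206 CPM. Lyz1, a lysozyme gene, was at 12.1 against 91.6 CPM (-2.50), and at -0.88 in other macrophages. Lyz1 and Lyz2 are near-identical copies, so the split between them is uncertain. Mrc1 had a ratio of -1.32, and Selenop, Igf1 (a growth factor) and Pf4 (a chemokine of resident macrophages) had ratios of 1.23, 1.13 and 1.28. The scavenger and resident list thus split, with 3 genes higher and 1 lower of 7 eligible (median 0.84). The 6 eligible MHC class II genes had a median of -0.72, and 0 met the rule. Of the proinflammatory list 4 of 16 were higher and 0 lower (median 0.43), among them Ccl2 and Ccl4 with ratios of 1.38 and 1.64. In other macrophages the proinflammatory median was much the same, at 0.45, with 0 of 17 eligible genes meeting the rule. The scavenger and resident list had a median of 0.04 there (0 of 8) and the MHC class II list -0.16 (0 of 7). S-phase genes had a median of 0.14, with 0 of 25 meeting the rule, and mitosis genes -0.41, with 3 of 33 lower. Ccnb1, cyclin B1, had a ratio of -1.33.

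The other named genes of this comparison rest on few cells. Tagln, Acta2, Sparc and Col4a1, genes of pericytes, smooth muscle and matrix, were higher in haplodeficient. Acta2 had 312 UMIs in haplodeficient and 0 in control (at least 26.0-fold higher), and Tagln 680 and 2 (85.1-fold, 23.5 to 704). Car15, S100g and Hsd11b2, tubule genes, were higher, and 1 cell held 54% to 94% of the haplodeficient UMIs of these 7 genes. Without the cells with kidney genes, Car15 had a ratio of -0.31 and S100g of -0.73. Kap, a proximal tubule gene, had 2 UMIs in haplodeficient and 314 in control (627-fold lower, 172 to 5204), and was lower in other macrophages too (-4.78). Fermt1, Abtb2, Hspa1b (a heat shock gene), Cacna1a, Sox4, Plxdc2 and Npm3 had ratios from -1.47 to -2.55. Without the cells with kidney genes Fermt1 had 0 UMIs in both libraries, Hsd11b2 had 4 UMIs and 1 UMI, and Sox4 had a ratio of -0.54, which missed the rule. Mitochondrial genes were lower in 5 of 12 eligible genes (median -0.95), and their median in other macrophages was -1.12.

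Dividing T cells differed between the libraries in 355 genes, 94 higher and 261 lower in haplodeficient (2.55% and 7.08%, together 9.63%, of 3685 eligible genes). In other T cells 104 were higher and 89 lower (3.00% and 2.56%, together 5.56%, of 3471). When the cells with kidney genes were left out, 77 were higher and 147 lower, and 100 of these 224 genes were among the 355. The lower genes named by the rule, Egf, Kdr, Gpx3, Umod, Igfbp5, Plat, Wfdc15b, Slc34a1, Slc12a2 and Emcn, are mostly tubule and endothelial genes. All 7 eligible endothelial genes were lower (median -2.97), and 0 of 1 without those cells. Umod, Egf, Wfdc15b and Gpx3 still met the rule as lower without those cells, with ratios of -7.76, -6.62, -5.79 and -2.59. The other named lower genes did not. Umod had 365 UMIs in the control cells that remained, so leaving those cells out did not remove all tubule RNA. With likely doublets removed instead, the ratios of Umod and Wfdc15b reversed, as given in the section on processing.

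Chemokines and effector genes were higher in haplodeficient dividing T cells. Xcl1 (GRCm38 chr1:164931644-164935527, minus strand), the lymphotactin that attracts cDC1 cells, was at 472 CPM in haplodeficient, with UMIs in 32 of 64 cells, and at 13.3 CPM in control, with 3 UMIs in 3 of 16 cells. That is 35.5-fold (12.1 to 173). In other T cells it was at 291 and 174 CPM (0.73). Ccl4, a chemokine of activated T cells, was at 214 CPM in 29 of 64 cells and 13.3 CPM in 1 of 16 cells, 16.1-fold (5.42 to 79.1). Ifng, interferon gamma, was at 115 CPM in 27 of 64 cells and 13.3 CPM in 2 of 16, 8.65-fold (2.86 to 42.8). Cd7, a surface protein of T and natural killer cells, was at 154 and 8.85 CPM, 17.4-fold (4.70 to 145). These 3 were also higher in other T cells, with log2 ratios of 2.36, 1.44 and 1.49. Within CD8 T cells, dividing haplodeficient cells had Xcl1 at 752 CPM against 345 CPM in other cells. Dividing control CD8 cells, of which there were 6, had it at 36.4 against 313 CPM. The other genes named here went both ways in haplodeficient CD8 cells. Cd7 was higher in dividing than in other cells, at 220 against 129 CPM. Ccl4 and Ifng were lower, at 317 against 633 CPM and 84.5 against 205 CPM. Cd8a itself was higher in dividing haplodeficient T cells (1.71) and Trdc lower (-2.79), with Trdc in 2 of 64 and 3 of 16 cells, so the dividing T cells of the 2 libraries held different subset markers. Of the cytotoxic list 5 of 9 eligible genes were higher (median 1.14), or 2 of 12 without the cells with kidney genes (median 0.49), and 2 of 12 in other T cells (median 0.39).

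H2-Aa and H2-Ab1 were higher too, with ratios of 2.76 and 2.92, but 1 cell held 51.3% and 49.4% of the haplodeficient UMIs. They were seen in 12 and 13 of 64 cells. Klra7, a natural killer receptor, had 75 UMIs in 6 cells against 0 UMIs in control (at least 7.91-fold higher), and Pappa2, Ccl1 and Frmpd4 rested on 3 cells or fewer. Pappa2 had 0 UMIs in both libraries without the cells with kidney genes. S-phase genes had a median of 0.60 with 1 of 28 higher, and mitosis genes -0.11 with 2 higher and 1 lower of 46. Mitochondrial genes were lower in 10 of 12 eligible genes (median -1.68), beside the lower mitochondrial share of that whole library.

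**Figure D5:**
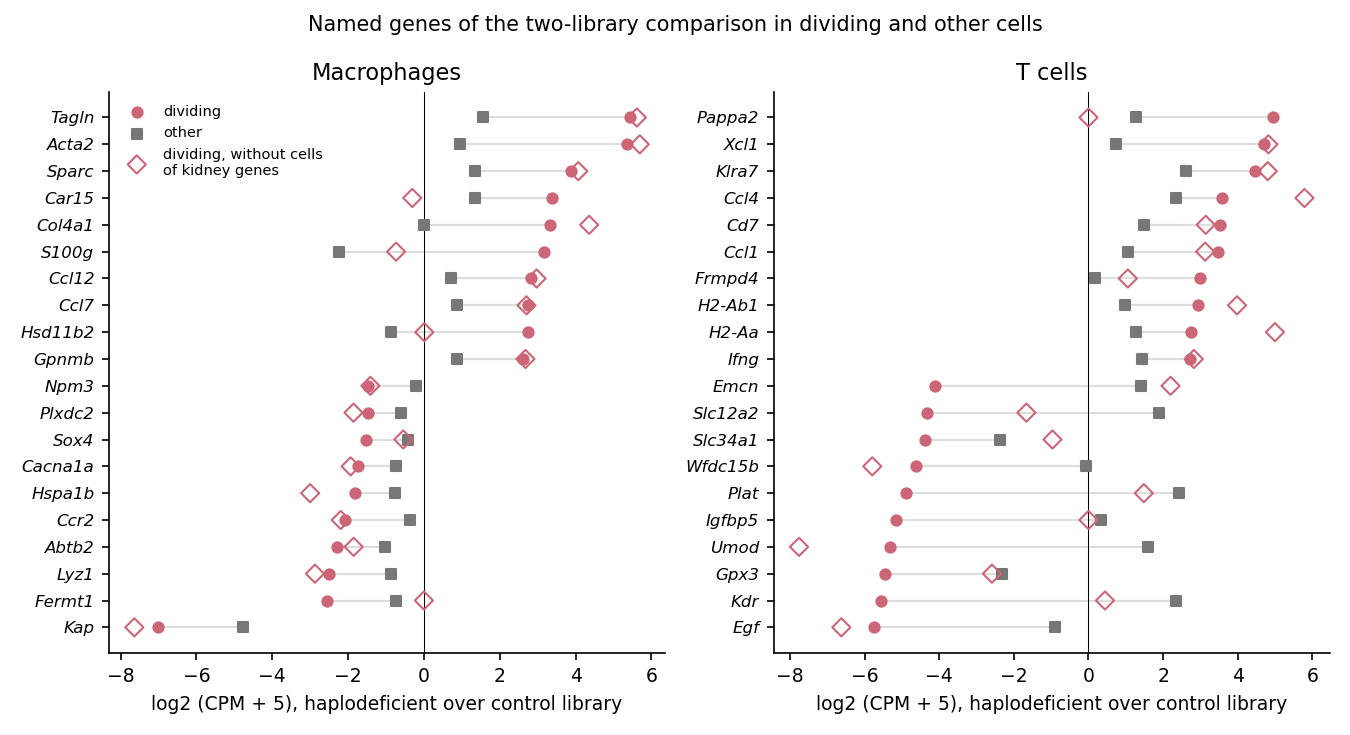
Log2 ratio of CPM plus 5, haplodeficient over control library (x axis), for the 10 highest and 10 lowest named genes (y axis) in dividing macrophages and T cells. Red points are dividing cells, open diamonds dividing cells without those with kidney genes, and grey squares other cells of the lineage. Gpnmb stands at 2.62 in dividing and 0.88 in other macrophages, Ccr2 at -2.09 and -0.37, and ratios of genes with 0 to 3 UMIs on 1 side depend on the added 5 CPM.

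Dividing dendritic cells carried genes of their type, some of which chose them, and 10 of 18 control and 5 of 11 haplodeficient cells were cDC1, against 56 of 133 and 52 of 206 other cells. Xcr1, the receptor for XCL1 and a marker used to choose cDC1 cells, was at 407 against 211 CPM in dividing and other control cells and 120 against 105 CPM in haplodeficient. Irf8, a transcription factor that cDC1 cells need, was at 850 against 533 CPM and 515 against 426 CPM. H2-Aa was at 6284 against 6620 CPM and 5898 against 6144 CPM. Hmgb2, a chromatin protein of cycling cells, was at 2406 against 122 CPM and 1966 against 162 CPM. Ccna2 was at 137 and 110 CPM in dividing cells, with 0 UMIs in the 133 and 206 other cells. The S-phase list was at 3314 against 669 CPM in control and 4064 against 547 CPM in haplodeficient, and the mitosis list at 8292 against 367 CPM and 7032 against 396 CPM. Summed over macrophages the same lists were at 2865 against 547 and 3132 against 573 CPM, and at 5579 against 463 and 4437 against 493 CPM. In T cells they were at 3421 against 882 and 5045 against 892 CPM, and at 7361 against 627 and 7851 against 717 CPM.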

How the data were processed

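Both matrices were read as deposited by the authors: whole-number UMI counts per gene and barcode (32285 genes, all barcodes), made with Cell Ranger 4 on mm10, per the file headers and the submitters' processing notes. Libraries were 10x 3' v3.1 and sequenced on a HiSeq 4000, per the labels' protocols. Hashtag reads were not used here. Cells were kept and sorted by the rules in the report. Counts were summed over the cells of a class and library, scaled to CPM and compared by size, since each group is 1 library. Genes used by the rule were left out of counts of called genes. Named genes were the 10 highest and 10 lowest by the smaller of both libraries' ratios (dividing against other) or by ratio (between libraries), plus members of 33 gene lists. The members and lists were chosen with earlier results of these data known. Shares have exact 95% binomial intervals, sums exact Poisson intervals. The size rule was run on simulated Poisson sums for 3 comparisons, where it called 0 of 2797, 1 of 2793 and 11 of 3092 unchanged genes. These sums had no variation between cells, so they do not cover genes whose UMIs sit in 1 cell. No doublets were removed in the values reported. Python 3.11.15, scanpy 1.11.5, scipy 1.17.1 and pandas 2.3.3 were used. Alternatives were other UMI minimums, doublet removal (Scrublet scores), thinning to 2000 UMIs, other pseudocounts, filters and scaling, and, added after the data were seen, leaving out the cells with kidney genes, thinning with a minimum of 1 UMI, counting cells with both markers in both lineages and weighting cells equally. A gene that the rule names is not reported here.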

Additional observations from a re-analysis of the deposited data

Results flagged for a closer look

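Dividing shares differed in opposite directions in 2 lineages under the same contrast, as point values. The haplodeficient minus control difference was 2.95 percentage points in macrophages (1.04 to 4.72) and -3.44 points in T cells (-8.66 to 0.226). The T-cell interval includes 0, and the macrophage difference depended on the UMI minimum and on thinning, as given in the next section. With 1 library a group the difference between the lineages was not tested.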

How the results depend on the processing

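No paired analysis was possible because each group is 1 library, and no replicate could be left out. For the dividing share of macrophages, the difference was 2.95 points. After thinning to 2000 UMIs it was 0.424 with 3 or more UMIs and -0.15 with 1 or more. Without thinning, at a minimum of 5 UMIs, it was 1.43 (-0.281 to 2.98). Counts of genes past the size rule moved by over 1.5 times with eligibility at 10 CPM (982 in dividing against other macrophages, control, 467 in dividing against other macrophages, haplodeficient, 869 in dividing against other T cells, haplodeficient, and 248 in dividing macrophages, haplodeficient against control). After thinning they were 253 (haplodeficient macrophages), 104 (control T cells), 35 (between dividing macrophages) and 57 (between dividing T cells), where fewer cells and UMIs enter. In dividing T cells, haplodeficient against control, leaving out cells with kidney genes gave 224. Of 1953 values of 217 single-gene results, 1623 moved by less than counting error, 319 moved further and 11 reversed. Without cells with kidney genes the reversed ratios were -0.31 (Car15), -0.73 (S100g), 0.44 (Kdr), 1.48 (Plat) and 2.20 (Emcn). With likely doublets removed they were -0.40 (S100g), 0.39 (Umod), 0.76 (Wfdc15b) and 0.43 (Emcn), and after thinning 0.92 (Npm3) and -0.35 (Frmpd4). The cause was not tested. Depth limits the control subsets, with 16 dividing T cells and 22 dividing macrophages.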

Other observations

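Interferon-stimulated genes, which cells switch on in antiviral responses, were mostly below other macrophages in dividing macrophages. Of 24 listed genes, 20 were below in control and 23 in haplodeficient, while 13009 of 19678 and 11887 of 20980 detected genes were. By the size rule 1 of 8 eligible genes in control and 2 of 10 in haplodeficient were lower, and 0 were higher. Isg15, a ubiquitin-like antiviral protein, was at 66.1 against 77.6 CPM in control (-0.22, which missed the rule) and 49.7 against 132 CPM in haplodeficient (-1.32). Ifitm3, a membrane protein that blocks virus entry, was at 354 against 679 CPM (-0.93, which missed the rule) and 450 against 1080 CPM (-1.25).

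Genes of cell cycle arrest and the kinase inhibitors had medians over eligible genes of -0.61 in control and -0.65 in haplodeficient macrophages, with 1 of 9 lower in each. Leaving out the cells with kidney genes gave 4 of 9 lower in control (median -0.73) and 1 of 9 in haplodeficient. Btg2, an antiproliferative gene, was at 448 against 863 CPM and 402 against 714 CPM, and Klf2, a transcription factor of resting leukocytes, at 257 against 281 CPM and 178 against 367 CPM. Of these values that of Klf2 in haplodeficient met the rule (-1.03), and without the cells with kidney genes that in control did too (-1.03). The 17 listed genes of chromosome condensation and cohesion were all above other macrophages in both libraries. Outside the leukocytes, 63 control and 60 haplodeficient kept cells had at least 3 Mki67 and Top2a UMIs and no Ptprc UMI, of which 2 and 5 had at least 10 C1q UMIs.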
